A study of Aspergillus glaucus with 6 samples.

Results

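The last salt step, 4 M against 3 M sodium chloride (NaCl) at 84 h, was studied in strain CCHA of Aspergillus glaucus, a mould that tolerates salt. It rests on 2 of the 6 RNA sequencing libraries of the series, chosen by their labels alone: mycelium of this strain treated with 4 M NaCl for 84 h, and mycelium of the same strain treated with 3 M NaCl for 84 h. The 1 M and 0 M NaCl libraries at 84 h give the levels of the same genes in less salt. The 3 M and 1 M NaCl libraries at 36 h were used as a second salt difference. Each condition has 1 library, so no difference carries a p-value or a standard deviation, and nothing shows how much 2 cultures in the same salt would differ. Growth before the treatment, the medium's recipe and how many cultures went into a library are not stated in these sources.

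Filamentous fungi in strong salt face water loss and sodium entry at the same time. In Saccharomyces cerevisiae and in other Aspergillus species, a mitogen-activated protein kinase cascade (the high-osmolarity glycerol pathway) senses the loss of turgor, glycerol and other polyols are made to balance the outside, and plasma membrane pumps and exchangers move sodium out. Growth, sporulation and secreted enzymes are also known to depend on water activity. The files do not pair their gene IDs with names, and none of the 8441 IDs (0 matches) was found among 11428 RefSeq genes of a different A. glaucus strain (assembly Aspgl1). No gene can therefore be assigned to these pathways. Markers of spores and fruiting bodies could not be looked up, so the mix of cell types in the mycelium was not assessed. Genes are described by their levels, by their pattern over the libraries and by ID for 4 of them.

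The libraries held 18009549 counts (4 M, 84 h) and 18376857 counts (3 M, 84 h), against 16371771 to 18110271 in the other 4. Levels are given as CPM, read counts divided by library size after TMM correction (trimmed mean of M values, which allows for differences in composition). One fact about the libraries touches everything below. The libraries of 4 M at 84 h and 3 M at 36 h stood apart from the rest, with 140 genes at least 4-fold apart between them, against 720 between 4 M and 3 M at 84 h. The 3 M library at 84 h was nearer to 0 M at 84 h (362 genes) and 1 M at 36 h (276 genes) than to 3 M at 36 h (752 genes). With 1 library per condition, salt, growth stage, an exchanged label and a single aberrant culture cannot be told apart as sources of this arrangement.

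At 84 h, 573 of 6308 genes compared were lower in 4 M than in 3 M by 4-fold or more, and 147 were higher by 4-fold or more. A gene was compared when it reached 10 CPM in at least 1 of the 2 libraries. These are 9.08% lower and 2.33% higher, 11.4% in all, so lower genes outnumbered higher ones. At 2-fold the sides were closer, with 1098 genes lower and 900 higher, and 68.3% of genes lay within 2-fold. Over all genes the median log2 fold change was 0.10, the middle 50% of genes lay between -0.60 and 0.65, and the 5th and 95th percentiles were -3.29 and 1.58. The tail on the lower side was therefore the longer one. With another library in place of 3 M at 84 h, an alternative chosen after the data were seen, 4 M had 794 genes lower and 353 higher against 1 M at 84 h (12.4% and 5.51% of genes). It had 638 lower and 207 higher against 0 M at 84 h (9.98% and 3.24%), but 110 lower and 30 higher against 3 M at 36 h (1.86% and 0.508%).

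**Figure D1:**
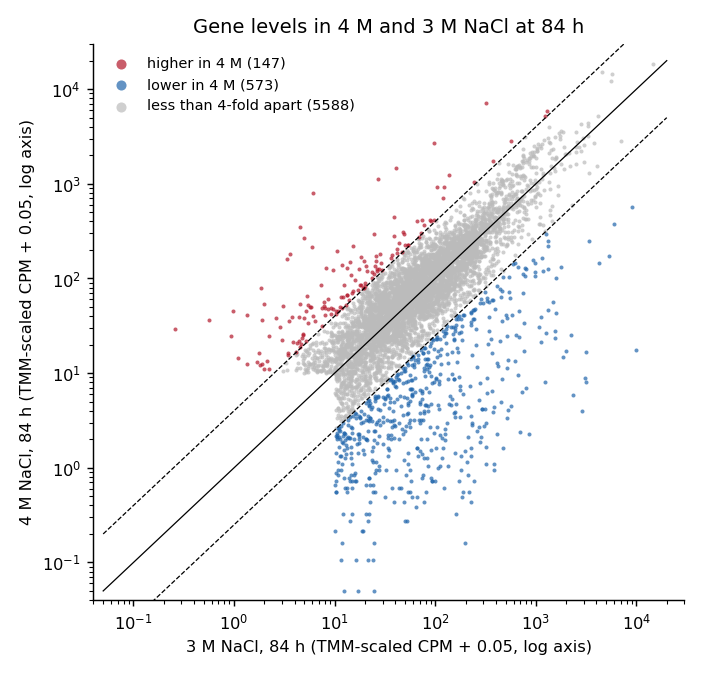
Level of each of the 6308 compared genes in 4 M (vertical) and 3 M NaCl (horizontal) at 84 h, in TMM-scaled CPM plus 0.05 on log axes, 1 point per gene; the solid line marks equal levels and the dashed lines 4-fold. The 573 lower genes spread far below the lower dashed line, while most of the 147 higher genes lie near the upper one.

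The lower genes were also further from equality than the higher genes. Among the 573 lower genes, 217 were 4- to 8-fold lower, 120 were 8- to 16-fold lower, 143 were 16- to 64-fold lower and 93 were 64-fold lower or more. Among the 147 higher genes the same classes held 100, 27, 17 and 3 genes. The median log2 fold change was 2.56 among the higher genes and -3.54 among the lower genes, which describes how they were chosen and is no test. Most genes, though not all, stood clear of the line in counting error. The exact 95% counting interval lay wholly beyond 4-fold for 506 of the lower genes (88.3%) and 115 of the higher genes (78.2%). Within 0.1 log2 units of the threshold there were 33 lower genes inside and 25 outside, and 21 higher genes inside and 30 outside. The nearest genes on each side differed little, at -2.010 inside and -1.995 outside for lower genes.

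Most lower genes had low levels in 4 M, though few were at the limit of detection. Of the 573, 401 stood under 10 CPM in 4 M, 89 stood under 1 CPM and 3 had no read, where 3 counts, the limit that a count of 0 allows, correspond to 0.167 CPM. A smaller share of the higher genes was that low in 3 M. There, 67 of the 147 stood under 10 CPM (45.6%, against 70.0% of the lower genes in 4 M). Only 4 stood under 1 CPM and 0 were without a read. The 89 genes under 1 CPM in 4 M had median levels of 22.3, 25.1 and 24.3 CPM in 0 M, 1 M and 3 M at 84 h. The minimum of 10 CPM had fixed that they stood above it in 3 M, and single genes among them went down to 0.289 CPM in 0 M and 0.112 CPM in 1 M. In 3 M at 36 h their median was 0.864 CPM. Fewer cells using a gene and less RNA per cell cannot be told apart in RNA from whole mycelium.

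Summed, the lower genes held 0.988% of reads counted in 4 M (exact 95% interval 0.983 to 0.993) and 16.4% in 3 M. The same genes held 14.2% in 0 M and 15.6% in 1 M at 84 h, so the share was much alike in the 3 libraries with less salt and low in 4 M. The higher genes took 4.84% of counts in 4 M (4.83 to 4.85) and 0.738% in 3 M (0.734 to 0.742), with 0.964% in 0 M and 1.07% in 1 M. In both lists few genes held most counts: 6 of the 147 higher genes (4.08%) made up at least 50% of their list's counts in 4 M, and 28 of the 573 lower genes (4.89%) made up at least 50% of theirs in 3 M. Intervals and floors cover counting error only, since the reads carry no molecular identifiers and can repeat the same molecule.

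Genes were also classed by the higher of their levels in 4 M and 3 M. The same libraries made the calls, so a gene's difference helps to set its class and the counts are a description. Counts grow with transcript length as well as with abundance, and gene lengths were not used here, so these classes are classes of counts. Of 205 genes with 1000 CPM or more in 4 M or 3 M, 32 were lower (15.6%) and 10 higher (4.88%), and 38.5% lay within 2-fold. Of 2416 genes at 100 to 1000 CPM, 8.15% were lower and 2.32% higher, and of 3687 genes at 10 to 100 CPM, 9.33% were lower and 2.20% higher. The median log2 fold change was 0.60 at 1000 CPM or more, 0.16 at 100 to 1000 CPM and 0.05 at 10 to 100 CPM. The middle gene of each class was thus higher in 4 M, most so in the class with the most counts. The 32 abundant lower genes held 0.336% of counts in 4 M and 8.71% in 3 M, against 5.61% in 0 M and 6.05% in 1 M. The 10 abundant higher genes held 3.04% of counts in 4 M and 0.455% in 3 M, against 0.429% in 0 M and 0.408% in 1 M. Of the 100 genes with the most counts in 3 M, 30 were among the lower genes, and of the 100 with the most counts in 4 M, 7 were among the higher genes. The 2 lists of 100 had 51 genes in common, of which 36 lay within 2-fold.

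The genes named here are, in each direction, the ID with the largest fold change and the ID with the largest difference in CPM. AG04473.1 was 131-fold higher, with 14369 counts (800 CPM) in 4 M and 118 counts (6.11 CPM) in 3 M, a log2 fold change of 7.01 with an exact 95% interval for counting error of 6.77 to 7.31. In less salt at 84 h it was hardly detected, with 4 counts in 0 M (0.231 CPM) and 10 counts in 1 M (0.562 CPM). The interval for 1 M against 0 M, -0.51 to 3.41 on the log2 scale, includes no difference. The 3 M level lay above both, and the 4 M level lay far above 3 M. At 36 h its level was 293 CPM in 3 M, against 0.811 CPM in 1 M. The next ID in the numbering was among the higher genes too, with a log2 fold change of 5.41.

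AG01935.1 had the largest gain in CPM but another pattern. It had 129270 counts in 4 M (7196 CPM) and 6208 counts in 3 M (321 CPM), a log2 fold change of 4.48 (4.45 to 4.52), and it had the 5th most counts of all genes in 4 M and the 571st most in 3 M. Its levels at 84 h were 1119 CPM in 0 M, 727 CPM in 1 M and 321 CPM in 3 M, so the level was lower with more salt up to 3 M, and 4 M broke that order. At 36 h it was high in both libraries, with 6249 CPM in 3 M against 5299 CPM in 1 M. The 3 M library at 84 h was the lowest of the 6 for this gene.

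AG06988.1 lost the most CPM. It had 316 counts in 4 M (17.6 CPM) and 192836 counts in 3 M (9983 CPM), where 1.05% of all counts were its own and no more than 1 gene had more, a log2 fold change of -9.14 (-9.31 to -8.99). At 84 h it was also abundant in 0 M (7566 CPM) and 1 M (11473 CPM), and these 3 libraries lay within 2-fold of one another. At 36 h its level was 17.7 CPM in 3 M, against 11675 CPM in 1 M. The gene was thus among the 3 with the most counts in 4 of the libraries and at about the same low level in the other two.

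AG00211.1 had the largest negative fold change, and its level peaked in 3 M at 84 h. It had 2 counts in 4 M (0.111 CPM) and 3798 counts in 3 M (197 CPM), a log2 fold change of -9.77 with a wide counting interval of -13.83 to -8.93. In less salt at 84 h its levels were low, 2.14 CPM in 0 M, 8.43 CPM in 1 M. At 36 h they were 0.864 CPM in 3 M, against 57.6 CPM in 1 M. Against 0 M the 4 M level was lower by a log2 fold change of -3.33 (-7.36 to -2.31), so much of the distance to 3 M came from the high 3 M level.

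**Figure D2:**
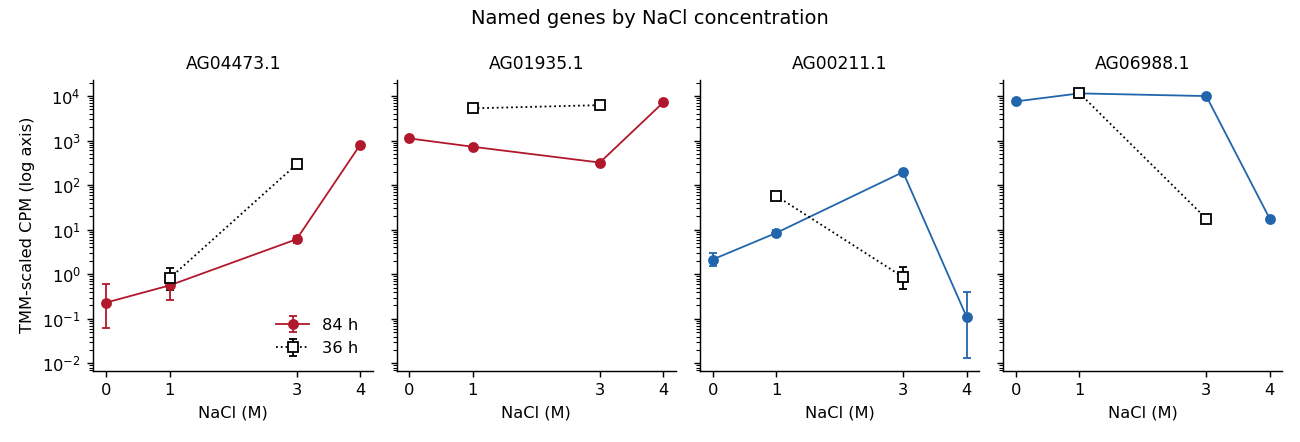
Level of the 4 named genes (TMM-scaled CPM, log axis) against NaCl concentration in M, with filled circles for the 84 h libraries, open squares for the 36 h libraries and bars for exact 95% counting intervals, 1 library per point. AG04473.1 and AG01935.1 are at 800 and 7196 CPM in 4 M, AG00211.1 and AG06988.1 at 0.111 and 17.6 CPM, and for all 4 genes the 3 M level at 36 h lies closer to 4 M than to 3 M at 84 h.

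The levels in 0 M and 1 M at 84 h place the 4 M and 3 M levels of each gene. The counts of this kind use the 4 M and 3 M libraries that chose the genes, so they describe levels and add no separate evidence. The lower genes had list medians near one another in the 3 less saline libraries, but single genes varied. Their median was 53.5 CPM in 0 M, 66.6 CPM in 1 M, 71.5 CPM in 3 M and 4.18 CPM in 4 M. The levels in 0 M, 1 M and 3 M lay within 2-fold of one another in 162 of the 573 (28.3%), against 67.3% of all genes compared. In 539 of the 573 genes (94.1%) the 4 M level was the lowest of the 4 libraries at 84 h. In 368 (64.2%) it was at least 4-fold below each of 0 M, 1 M and 3 M, and these 368 had medians of 80.1, 108, 73.2 and 2.92 CPM in 0 M, 1 M, 3 M and 4 M.

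Some lower genes had a plateau followed by a drop. For 126 lower genes (22.0%), AG06988.1 among them, the levels in 0 M, 1 M and 3 M lay within 2-fold of one another and the 4 M level lay at least 4-fold below each. Their medians were 84.9, 88.7, 81.5 and 3.42 CPM in 0 M, 1 M, 3 M and 4 M. A descent at every step, of any size, was seen in 60 genes (10.5%), with medians of 145, 77.3, 40.9 and 2.64 CPM. The plateau and the descent follow different rules and can overlap, so their counts cannot be set against each other. Neither was counted over all genes. In 50 genes (8.73%) the 3 M level was already at least 2-fold below both 0 M and 1 M, against 2.36% of all genes compared. Of the 93 genes at least 64-fold lower, 88 were at least 4-fold below 0 M and 1 M too. The medians of all 93 were 184, 182, 208 and 1.06 CPM in 0 M, 1 M, 3 M and 4 M.

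In a smaller set of lower genes the 3 M level at 84 h was also above 0 M and 1 M. The genes had been chosen for a 3 M level above 4 M, which favours high 3 M levels, so these counts are a description. For 103 genes (18.0%) the 3 M level was at least 2-fold above both 0 M and 1 M, against 4.07% of all genes compared, and for 40 genes (6.98%) it was at least 4-fold above, against 1.24%. The 40 genes, to which AG00211.1 belongs, had medians of 4.80, 5.82, 78.2 and 2.004 CPM in 0 M, 1 M, 3 M and 4 M, and of 3.58 CPM in 3 M and 20.1 CPM in 1 M at 36 h. For 27 lower genes the 4 M level was within 2-fold of both 0 M and 1 M, or above them, and for a further 27 this held for 0 M alone and for 35 for 1 M alone. The remaining 116 lower genes lay between these cases.

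**Figure D3:**
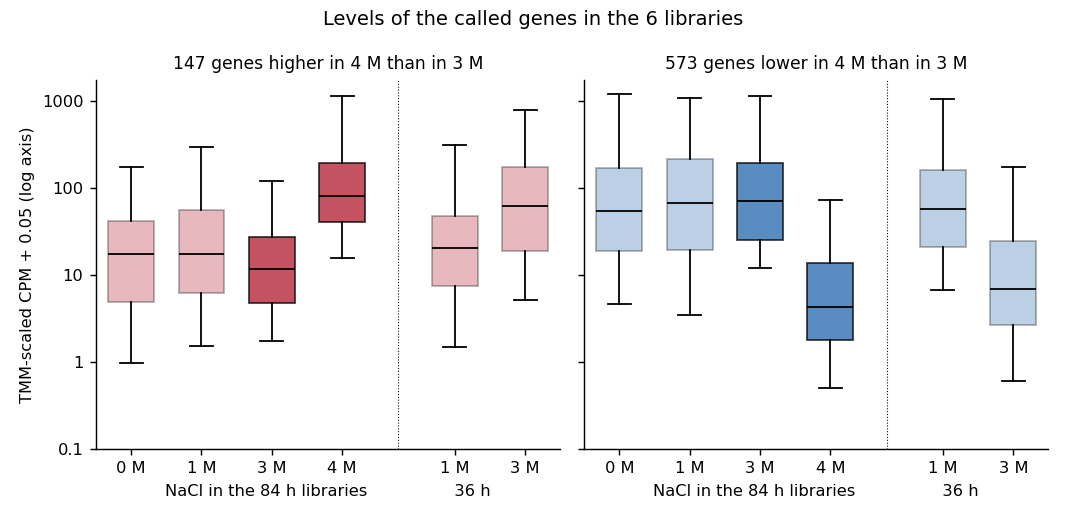
Levels (TMM-scaled CPM plus 0.05, log axis) of the 147 higher genes (left) and the 573 lower genes (right) in each library; boxes give the median and quartiles over genes, whiskers the 5th and 95th percentiles, and the 2 dark boxes are the libraries that chose the genes. The lower genes have medians of 53.5 to 71.5 CPM in 0 M to 3 M at 84 h and 4.18 CPM in 4 M, and 6.91 CPM in 3 M at 36 h.

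The higher genes also varied in 0 M, 1 M and 3 M, with levels within 2-fold of one another in 28 of the 147 (19.0%). Their median was 17.3 CPM in 0 M, 17.3 CPM in 1 M, 11.8 CPM in 3 M and 79.7 CPM in 4 M. In 122 of the 147 (83.0%) the 4 M level was the highest at 84 h, and in 66 (44.9%) it was at least 4-fold above each of the other 3. These 66 had medians of 6.88, 9.27, 13.7 and 123 CPM in 0 M, 1 M, 3 M and 4 M, and AG04473.1 and AG01935.1 are among them. A plateau followed by a step up was seen in 17 genes, with medians of 19.7, 22.6, 17.3 and 108 CPM. An ascent at every step, of any size, was seen in 20 genes, with medians of 3.21, 5.59, 14.6 and 141 CPM.

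For other higher genes the 4 M level was one that less salt also gave. In 27 genes it was within 2-fold of 1 M, or below it, but not of 0 M. These 27 had medians of 10.9, 57.6, 5.23 and 45.8 CPM in 0 M, 1 M, 3 M and 4 M. In 21 genes the same held for 0 M but not 1 M, with medians of 52.8, 14.2, 15.3 and 74.4 CPM. In 5 genes it held for both, and the remaining 28 lay between. In 25 higher genes (17.0%) the 3 M level was at least 2-fold below both 0 M and 1 M, against 2.36% of all genes compared, in a list chosen for 3 M levels below 4 M.

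**Figure D4:**
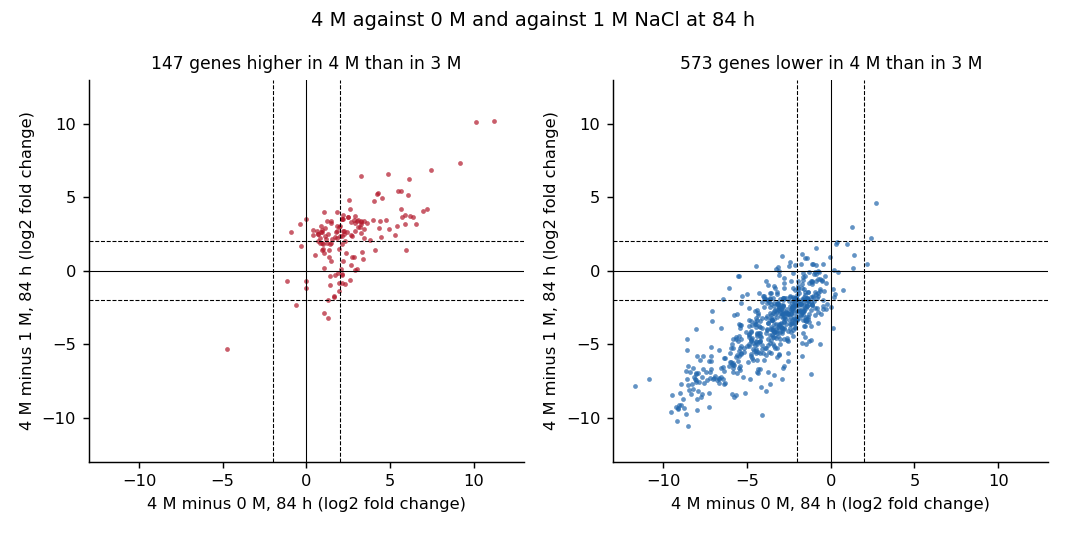
Log2 fold change of 4 M against 0 M (horizontal) and of 4 M against 1 M (vertical) at 84 h for the 147 higher genes (left) and the 573 lower genes (right), 1 point per gene, with dashed lines at 4-fold. The lower left corner of the right panel holds the 368 genes at least 4-fold below 0 M, 1 M and 3 M, and the upper right corner of the left panel the 66 genes at least 4-fold above them; the 4 M library is shared by both axes.

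Between 1 M and 0 M at 84 h, 2 libraries that did not choose the genes, the lower genes had no large difference in common. Of the 573, 528 passed the 10 CPM minimum there, with a median log2 fold change of 0.25 against -0.03 over all 6429 genes compared. Over all 573 the median was 0.23. Among the 528, 54 were at least 4-fold higher in 1 M (10.2%) and 43 at least 4-fold lower (8.14%), where 4.56% and 2.83% of all genes were. The higher genes varied more between these libraries: of the 114 that passed, 27 were at least 4-fold higher in 1 M (23.7%) and 11 at least 4-fold lower (9.65%), with a median of -0.08 that changed sign under other settings. In the lower list 52.3% and in the higher list 35.1% of genes that passed lay within 2-fold, against 75.9% of all genes.

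The difference between 3 M and 1 M NaCl at 36 h shares no library with the last salt step. Of the 573 lower genes, 515 passed the minimum at 36 h, and 352 of these were lower by 4-fold or more in 3 M (68.3%), against 8.82% of all 6339 genes. None (0) was at least 4-fold higher. The 352 genes are 61.4% of the lower genes of the last step and 63.0% of the 559 genes at least 4-fold lower at 36 h. The median log2 fold change at 36 h was -2.58 over the 515 and -2.52 over all 573, against 0.06 over all genes compared. In levels, the lower genes had a median of 6.91 CPM in 3 M and 57.8 CPM in 1 M at 36 h, and they held 2.11% and 14.3% of the counts of these libraries.

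The share lower at 36 h went up with the fold at 84 h. It was 152 of 299 (50.8%) among genes 4- to 16-fold lower in 4 M, 113 of 129 (87.6%) among those 16- to 64-fold lower, and 87 of 87 among those at least 64-fold lower. By pattern, it was 281 of 342 (82.2%) for the genes at least 4-fold below 0 M, 1 M and 3 M. For genes whose 4 M level was near both 0 M and 1 M it was 3 of 19 (15.8%). Of the 89 genes under 1 CPM in 4 M, 49 were also under 1 CPM in 3 M at 36 h. Of all 6308 genes compared at 84 h, 58 were under 1 CPM in that library (0.919%). The 49 had medians of 24.97, 24.7 and 32.5 CPM in 0 M, 1 M and 3 M at 84 h. Set against the 3 M library at 36 h itself, 378 of the 573 had a level there within 2-fold of 4 M or below it. That was common among genes at large. Of all 5908 genes that passed the minimum in this pair, 318 missed it, being 2-fold or more lower in 4 M. The lower genes, counted without the minimum, thus met it less often. This pair shares 4 M with the comparison that chose the genes. In it, 257 of the 573 passed the 10 CPM minimum, which leaves out genes low in both libraries. Of the 257, 50.6% lay within 2-fold, against 89.4% of all 5908 genes compared. In 25.7% of the 257 the 4 M level was at least 4-fold lower, against 1.86% of all genes. In 4 M, 401 of the 573 stood under 10 CPM. Those could pass only through a higher level in 3 M at 36 h. The minimum thus favoured this direction, and the shares of the 257 are a description. Over all 573, with no minimum, 90 were at least 4-fold lower in 4 M and 0 at least 4-fold higher. Their median log2 fold change was -0.48.

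Of the 147 higher genes, 137 passed at 36 h, and 47 were higher by 4-fold or more in 3 M (34.3%), against 2.05% of all genes. A further 9 were at least 4-fold lower (6.57%), against 8.82% of all genes. The 47 are 32.0% of the higher genes of the last step and 36.2% of the 130 genes at least 4-fold higher at 36 h. The median over the 137 was 1.61, and the same over all 147. The higher genes together held 4.26% of counts in 3 M and 1.96% in 1 M at 36 h. The 47 genes had medians of 112 CPM in 3 M and 12.9 CPM in 1 M at 36 h, and of 137 CPM in 4 M and 18.0 CPM in 3 M at 84 h. In 17 higher genes, AG01935.1 among them, both 36 h libraries lay within 2-fold of the 4 M level or above it, with medians of 143 CPM in 3 M and 100.2 CPM in 1 M at 36 h and of 124 CPM in 4 M and 11.8 CPM in 3 M at 84 h. How many of all genes do so was not counted, so the 17 are no special trait of the list. Between 4 M at 84 h and 3 M at 36 h, 89.4% of all 5908 genes compared lay within 2-fold, against 65.3% of the 147.

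**Figure D5:**
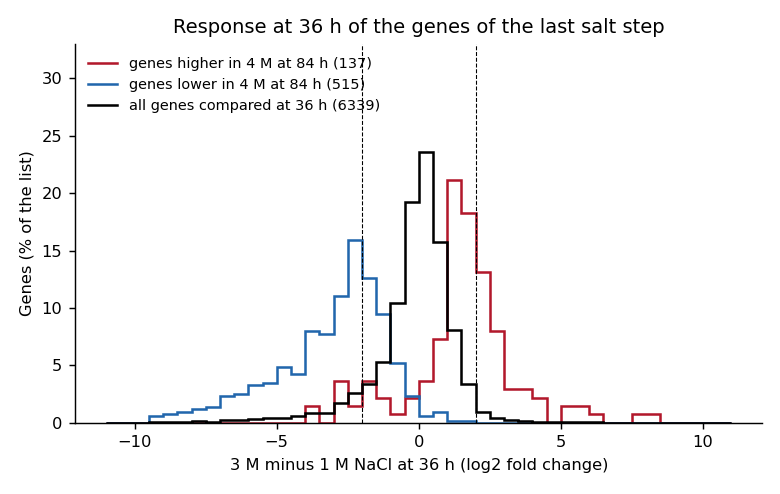
Log2 fold change of 3 M against 1 M NaCl at 36 h for the genes higher in 4 M at 84 h (137), the genes lower in 4 M at 84 h (515) and all genes compared at 36 h (6339), as percent of each list in bins of 0.5; dashed lines mark 4-fold. The lower genes have a median of -2.58 and the higher genes of 1.61, against 0.06 for all genes.

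Lower genes often had neighbouring IDs. The IDs are numbered without gaps but for 110 of 8551 numbers; whether the numbering follows position in the genome is not stated in these sources, so a run is a run of IDs. The next listed ID was itself a lower gene for 109 of the 573 (19.0%), where it was one for 405 of all 6308 genes compared (6.42%). It was a higher gene for 8 of the 573. Among the 147 higher genes the next ID was a higher gene in 10 (6.80%), against 1.73% of all genes compared. Runs of 3 or more consecutive lower IDs numbered 22 and held 77 genes, and the higher genes had 1 such run, of 3 genes.

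The 2 longest runs had 6 lower genes each. In the first, levels ran from 0.278 to 8.02 CPM in 4 M and from 160 to 3176 CPM in 3 M, and all 6 genes were at least 64-fold lower, with log2 fold changes of -8.68 to -6.11. All 6 were also lower at 36 h, in 3 M against 1 M, by 4-fold or more. Its median levels went down with salt at 84 h, from 754 CPM in 0 M through 470 CPM in 1 M and 236 CPM in 3 M to 1.92 CPM in 4 M. In the second run the log2 fold changes were smaller, from -5.66 to -2.26, and the medians were 108, 578, 233 and 13.6 CPM in 0 M, 1 M, 3 M and 4 M, with the highest level in 1 M. The run of 3 higher genes had medians of 40.5, 86.7, 4.40 and 39.5 CPM in 0 M, 1 M, 3 M and 4 M, so there the low level was that of 3 M. AG06988.1 closed a run of 3 lower genes, and its 2 partners differed far less, the milder one with a log2 fold change of -2.02.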

How the data were processed

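Each deposited file holds 1 library's raw read counts by gene, which the authors did not normalize. The submitters' processing notes name TopHat2 2.0.8b and HTSeq 0.5.4p2. Genome build, annotation, strand setting and filters are not given in these sources, so counts of paralogs, overlapping genes and antisense partners are uncertain. Genes absent from a file were set to 0, since the smallest listed count is 1. Libraries were scaled by TMM factors over all 6 (edgeR 4.0.16, R 4.3.3). Log2 fold changes use a prior count of 2, and a gene was compared at 10 CPM or more in at least 1 of the 2 libraries. With 1 library per condition a fixed rule of size, 4-fold, replaced a test; exact 95% intervals (Clopper-Pearson, SciPy 1.17.1) cover counting error only. The size rule and intervals were tested on simulated data with counting error alone. Such data hold no difference between cultures, so they cannot show how far the calls would repeat. The 2133 genes not compared held 0.349% of counts in 4 M and 0.507% in 3 M. The named genes follow a rule: in each direction the largest fold change and the largest CPM difference, among called genes whose interval excludes 2-fold. Gene lists for osmostress signalling, glycerol, cation transport, heat shock and oxidative stress, and the spore and fruiting body markers, matched 0 IDs and gave no result. The rule, the classes and the lists were chosen with earlier results of these data known. Alternatives were DESeq2 1.42.0 size factors, total counts, TMM from the 2 libraries, another prior count, 2 other level minimums, and intervals beyond 4-fold.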

Additional observations from a re-analysis of the deposited data

How the results depend on the processing

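No paired analysis was possible because each condition has 1 library. Of 66 values recomputed under 7 alternative settings, 59 stayed within 1.5 times of the reported count or within the reported interval. Size factors by DESeq2, total counts, TMM factors from the 2 libraries, a prior count of 0.5 and intervals wholly beyond 4-fold gave 506 to 599 lower genes and 115 to 149 higher genes. The share of lower genes among called genes lay between 78.6% and 82.1% in all 7. A minimum of 50 CPM in place of 10, which leaves 4146 genes, gave 346 lower and 94 higher genes, 224 lower genes below 0 M, 1 M and 3 M, and 190 lower and 31 higher genes called at 36 h. With no minimum there were 849 lower and 197 higher genes, and the median of the lower genes in 1 M against 0 M was 0.10. The same median of the higher genes was -0.12 with a prior count of 0.5 and 0.18 with intervals beyond 4-fold, so it has no settled sign. Total counts put AG01935.1 at a log2 fold change of 4.41, outside its counting interval. Among alternatives added after the data were seen, 4 M against 1 M gave 353 higher genes, and 4 M against the 3 M library at 36 h gave 110 lower and 30 higher genes. The cause was not tested. Depth limits genes near 3 counts (0.155 to 0.185 CPM).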

Other observations

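Some genes had reads in only 1 of the 2 libraries. There were 94 genes with a read in 4 M and none in 3 M, and 183 with a read in 3 M and none in 4 M. Their counts were mostly at the edge of detection, with a median of 1 count in 4 M for the first set and 3 counts in 3 M for the second. None (0) of the 94 and 3 of the 183 reached 10 CPM. The highest count was 45 in the first set and 469 in the second.

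Of the higher genes, 9 were lower at 36 h in 3 M against 1 M by 4-fold or more. These 9 are 6.57% of the 137 that passed the minimum there, against 8.82% of all genes compared at 36 h. Their median levels were 45.8 CPM in 4 M at 84 h, and 10.7, 89.9 and 4.19 CPM in 0 M, 1 M and 3 M at 84 h. At 36 h their medians were 9.38 CPM in 3 M, against 70.9 CPM in 1 M. Thus, by the medians of these genes, both 3 M libraries were low and the 4 M and both 1 M libraries were high. That is not the grouping of most called genes. In the lower list, 47 genes lay within 2-fold at 36 h, with medians of 51.1 CPM in 3 M and 60.4 CPM in 1 M at 36 h, and of 12.9 CPM in 4 M and 97.8 CPM in 3 M at 84 h. By these medians the set was low in 4 M and not in the 3 M library at 36 h, though single genes can differ. Both sets were picked by their values and carry no test.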
